A study of Mus musculus with 4 samples.

Results

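NF-κB is held in check by the proteins whose genes it switches on, and the 10 genes described here make up the core of that loop in bone marrow cells. They are the 5 subunits Nfkb1, Nfkb2, Rel, Rela and Relb and 5 genes grouped here as inhibitors, Nfkbia, Nfkbib, Nfkbie, Nfkbiz and Tnfaip3. The members were taken by gene symbol, each symbol matched 1 row, and they are 10 of the 31053 genes in the count tables. The samples were bone marrow mononuclear cells of C57BL/6 mice, flushed from femur and tibia and collected at a Ficoll interface, from 2 TLR9-/- mice and 2 wild-type (WT) mice, with 1 library of transcript 5′ ends per mouse. TLR9 is the endosomal receptor for unmethylated CpG DNA and signals to NF-κB. Mice of the 2 genotypes were bred in separate cages, so cage and genotype cannot be told apart, and no age is given in the labels. The libraries of each genotype carry the numbers 1 and 2, and the study ran 2 experiments with a WT and a TLR9-/- mouse in each. Whether a number stands for an experiment is not given. The comparisons below ask how the 10 genes differed between genotypes and between library numbers within each cell class.

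In resting cells NF-κB dimers are kept in the cytoplasm by IκB proteins, and signals from Toll-like or cytokine receptors lead to phosphorylation and degradation of the inhibitors. RelA and c-Rel, usually paired with the p50 product of Nfkb1, then enter the nucleus, and a slower route through the p100 precursor encoded by Nfkb2 releases RelB. IκBα, IκBε, IκBζ and the ubiquitin-editing enzyme A20 are encoded by genes that NF-κB itself induces, so their transcripts follow recent activity of the pathway, whereas IκBβ is less responsive.

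After removal of cells with fewer than 200 detected genes or more than 10% mitochondrial unique molecular identifiers (UMIs), 39167 of 40545 cells remained, with 31210188 to 63958243 UMIs per library. Cells were grouped into 32 clusters that were named from marker genes, and 15 classes with at least 20 cells in every library were tested. Stromal cells (62 cells) were too few, and a cluster of 300 cells led by immunoglobulin genes (170, 3, 124 and 3 cells) was left unnamed. Any pair of libraries shared between 112 and 185 cell barcodes, where 108 to 155 were expected for independent barcodes. The targeted gene, Tlr9, was counted 41 and 48 times in TLR9-/- cells and 120 and 97 times in WT cells. Levels are given in CPM, the UMIs of a gene scaled by the class total of the library and the TMM factor, and always in the order TLR9-/- number 1, TLR9-/- number 2, WT number 1, WT number 2. In sums of cells, fewer expressing cells and less RNA per cell cannot be told apart.

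The upstream sequences of 3 inhibitor genes are shown because the results below turn on Nfkbia, Nfkbib and Tnfaip3. Each is the run of 250 bases before a RefSeq transcription start in build GRCm38.p6, written 5′ to 3′ on the gene's strand, here the minus strand in each case. Capitals mark matches to the κB consensus on either strand and, in Tnfaip3, also a match to the AP-1 sequence TGANTCA. Nfkbia lies at chr12:55489410-55492647, Nfkbib at chr7:28758251-28767512 and Tnfaip3 at chr10:19000910-19015657.
Nfkbia, chr12:55492648-55492897: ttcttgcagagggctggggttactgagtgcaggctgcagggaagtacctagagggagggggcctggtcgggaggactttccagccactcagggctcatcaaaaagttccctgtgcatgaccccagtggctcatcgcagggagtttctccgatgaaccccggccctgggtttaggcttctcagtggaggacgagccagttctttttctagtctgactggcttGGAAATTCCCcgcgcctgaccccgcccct
Nfkbib, chr7:28766645-28766894: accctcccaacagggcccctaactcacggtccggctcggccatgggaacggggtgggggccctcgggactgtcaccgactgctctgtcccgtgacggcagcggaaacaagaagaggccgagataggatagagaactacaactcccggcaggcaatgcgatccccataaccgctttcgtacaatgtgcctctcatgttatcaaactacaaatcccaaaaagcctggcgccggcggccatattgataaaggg
Tnfaip3, chr10:19015411-19015660: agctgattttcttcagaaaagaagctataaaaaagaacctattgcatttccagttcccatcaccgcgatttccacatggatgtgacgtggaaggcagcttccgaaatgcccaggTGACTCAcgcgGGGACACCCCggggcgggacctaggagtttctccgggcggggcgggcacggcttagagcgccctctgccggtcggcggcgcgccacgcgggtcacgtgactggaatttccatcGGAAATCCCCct
The match in Nfkbia begins 29 bases before the start, those in Tnfaip3 begin 125 and 12 bases before the start shown, and the Nfkbib window holds none. The window of another Tnfaip3 start, chr10:19011964-19012213, holds neither motif. A κB match occurred in 3.899% of 32851 promoter windows of the same length, and an AP-1 match in 6.749%. RefSeq windows were found for 7 of the 10 members, with 10 start sites in all, and none was found for Nfkb1, Relb and Nfkbiz. Matches were also present before the starts of Nfkb2, Rel and Nfkbie but not of Rela. A match is a description of the letters only.

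**Figure D1:**
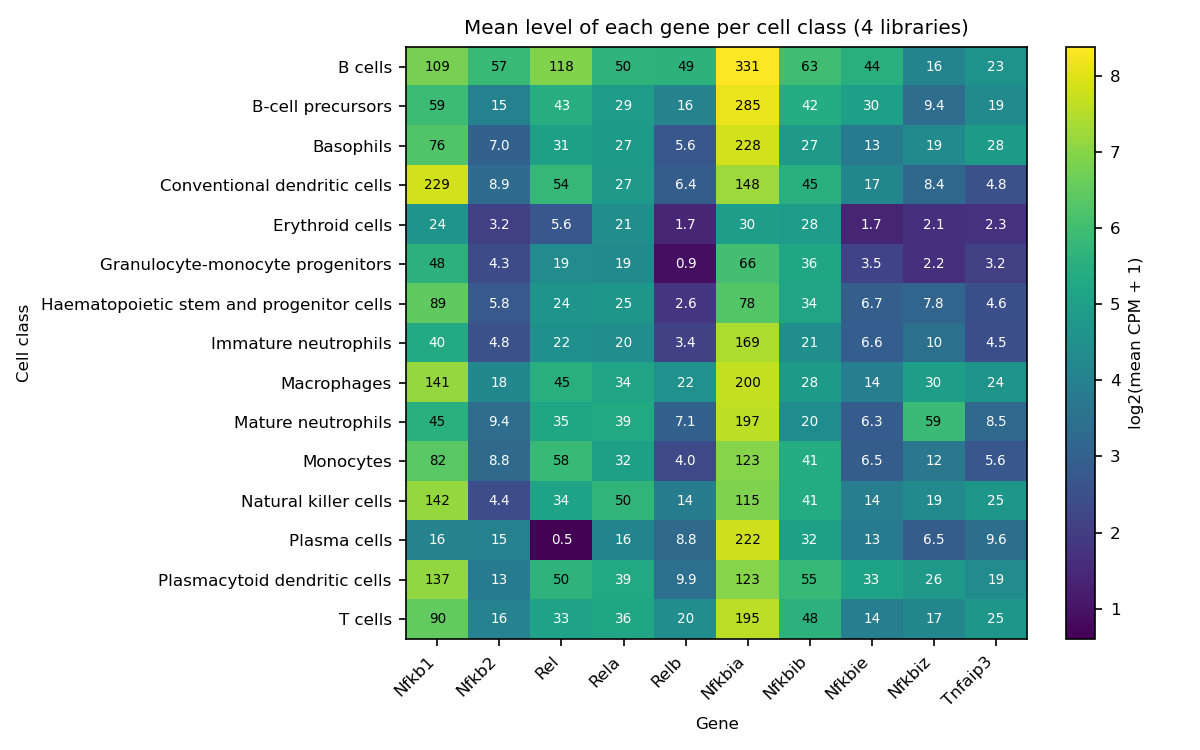
Mean level of the 10 genes in 15 cell classes. Rows are classes, columns are genes, each number is the mean CPM over 4 libraries and the colour is log2(mean CPM + 1). B cells had the highest means of Nfkb2 (57.5 CPM), Rel (118 CPM), Relb (48.5 CPM) and Nfkbia (331 CPM), and conventional dendritic cells that of Nfkb1 (229 CPM).

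The subunits differed in how sharply their levels separated the cell classes. Rel, which encodes c-Rel, was 106, 116, 113 and 139 CPM in B cells and 2.81 to 8.44 CPM in erythroid cells, and 1 UMI was found over all plasma cells. Its mean of 118 ± 14.2 CPM in B cells (SD, n = 4 libraries) stood apart from that of monocytes, the next class, at 57.9 ± 6.77 CPM. Nfkb2 and Relb, the genes of the slower route, likewise had their highest class means in B cells, at 57.5 ± 4.95 and 48.5 ± 7.05 CPM. In both cases the 4 B cell libraries lay above every library of the class next in order. This gap was between class sums. The B cell libraries ranged from 53.5 to 64.5 CPM for Nfkb2 and from 44.9 to 59.1 CPM for Relb. In cluster 0 of the B-cell precursors the ranges were 45.05 to 52.8 CPM and 38.6 to 60.3 CPM. In precursor cluster 2 they were 5.44 to 6.18 CPM and 6.7 to 10.2 CPM. Nfkb1 was highest in the class named conventional dendritic cells, at 229 ± 20.7 CPM with a range of 216 to 260. This was again without overlap with the class next in order, natural killer cells (142 ± 31.1 CPM). At a finer clustering the dendritic name covered 529 cells led by Cd209a and Ckb and 518 cells led by AC140186.1 and Runx2. At a coarser clustering it covered 303 cells. Nfkb1 was not compared between these groups. Rela varied least. Its class means ran from 16.4 to 50.1 CPM, a 3.05-fold span, and no neighbouring classes in its order were apart beyond their ranges. Levels between classes are descriptions without a test, since the classes were formed from the same cells, although the 10 genes were kept out of the clustering. CPM is also a share of the class total. A list of 7 neutrophil genes summed to 400364 to 489674 CPM in immature and 325100 to 463528 CPM in mature neutrophils. The 4 globin genes summed to 21620 to 182948 CPM in erythroid cells. Their part in the order of classes was not tested.

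Among the inhibitors, Nfkbia, which encodes IκBα, ran from 331 ± 63.5 CPM in B cells and 285 ± 50.1 CPM in B-cell precursors to 29.9 ± 11.6 CPM in erythroid cells. The order held 2 gaps, 1 between natural killer cells (115 ± 20.9 CPM) and haematopoietic stem and progenitor cells (77.7 ± 13.9 CPM) and 1 between granulocyte-monocyte progenitors (66.0 ± 15.7 CPM) and erythroid cells. All other neighbours overlapped. Nfkbiz, which encodes the nuclear protein IκBζ, had its highest mean in mature neutrophils at 59.3 ± 17.8 CPM, against 10.1 ± 1.62 CPM in immature neutrophils. Nfkbie, the gene of IκBε, had its highest class means in B cells (44.3 ± 4.71 CPM), plasmacytoid dendritic cells (33.3 ± 10.9 CPM) and B-cell precursors (30.5 ± 7.21 CPM). The precursors stood apart from conventional dendritic cells, the class next in order (16.9 ± 3.95 CPM). Macrophages, with 0 to 3 Nfkbie UMIs per library, ranged from 0 to 25.3 CPM. Nfkbib, which encodes IκBβ, spanned 3.16-fold between classes with no gap in the order. Tnfaip3, which encodes A20, had similar class means in basophils (27.5 ± 14.6 CPM), T cells (25.4 ± 15 CPM) and natural killer cells (25.2 ± 10.9 CPM), and its order also held no gap. Clusters within a class differed, however. In precursor cluster 0 Tnfaip3 was 59.3, 50.7, 54.9 and 48.9 CPM and Nfkbie 104, 114, 87.1 and 67.8 CPM. Nfkbia there was 680, 811, 671 and 597 CPM. These values lay above the highest class mean of each gene. In precursor cluster 15 Tnfaip3 was 41.6, 15.7, 30.4 and 36.9 CPM and Nfkbie 41.6, 56.3, 34.7 and 47.1 CPM. Nfkbia there was 121, 100, 110 and 121 CPM.

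None of the 10 genes passed the threshold between genotypes in any class in the main edgeR fit. Over 119 gene-by-class tests, edgeR called 0, while it called 0.312% of 113000 tests over all genes. DESeq2 called 1 of the member tests and 457 tests over all genes. Of the 119, 6 (5.04%) had an unadjusted p under 0.05 in edgeR, against 6.81% of all tests. The median log2 difference of TLR9-/- over WT was −0.05 over the members and −0.01 over all tests, and its median size was 0.21 and 0.22. Of the 119 differences, 55 were positive. In monocytes and basophils, simulated 2-fold changes between genotypes were recovered at 62.1% and 21.1%, respectively, so changes of that size or smaller could be missed. The simulation set the spread between libraries at a fixed value that was not estimated from these data.

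**Figure D2:**
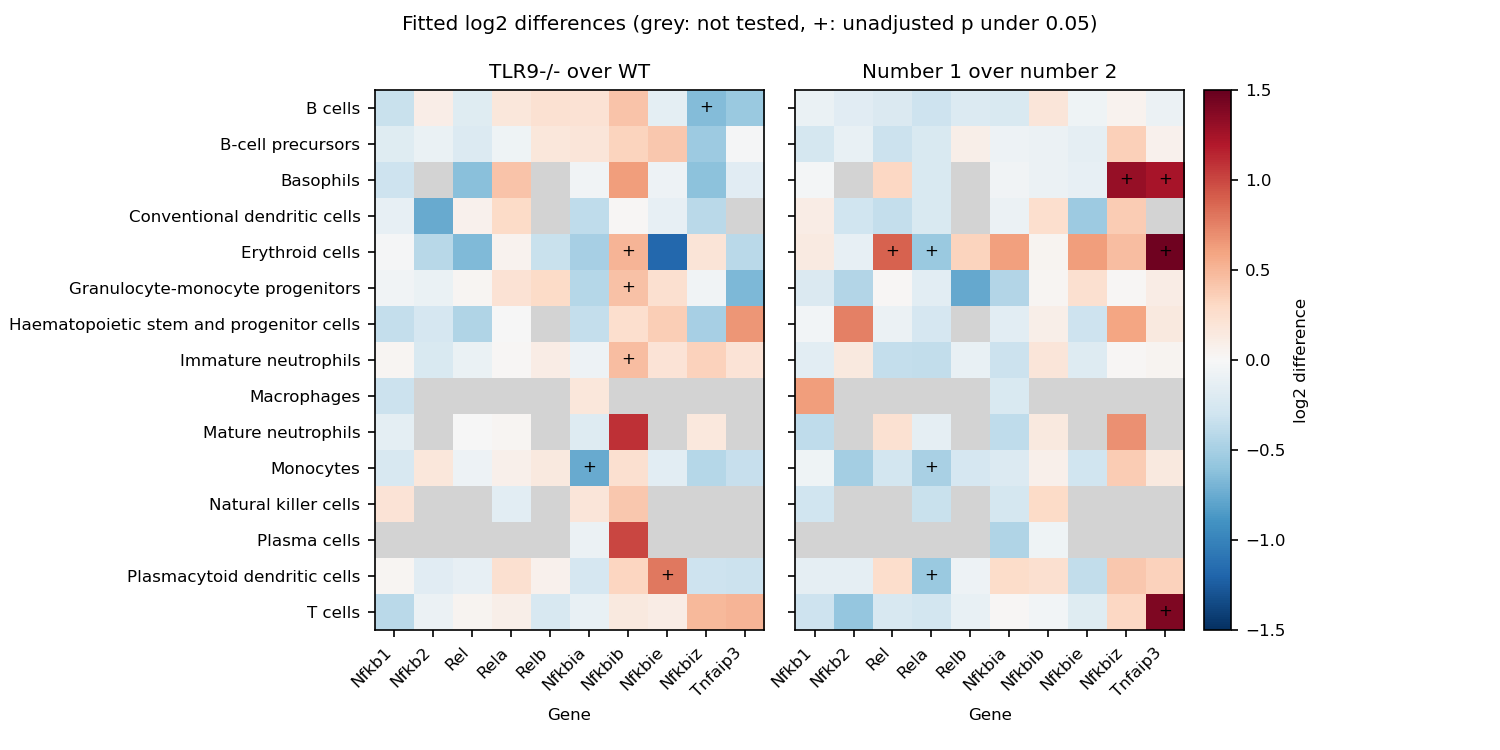
Fitted log2 differences of the 10 genes in 15 cell classes, for TLR9-/- over WT (left) and for libraries numbered 1 over those numbered 2 (right). Colour gives the log2 difference from −1.5 to 1.5, grey cells were not tested and a plus marks an unadjusted p under 0.05, found in 6 cells on the left and 8 on the right. Over all genes, 6.81% and 8.20% of tests had such a p.

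The smallest adjusted p between genotypes was that of Nfkbia in monocytes. It was counted 645 and 806 times in TLR9-/- monocytes and 497 and 515 times in WT monocytes, or 83.6, 99.0, 145 and 165 CPM. Both TLR9-/- libraries were below both WT libraries. The means were 91.3 ± 10.9 CPM in TLR9-/- and 155 ± 14.2 CPM in WT monocytes (SD, n = 2 libraries each), a log2 difference of −0.76 (standard error 0.16, adjusted p = 0.149 over all genes). The same-numbered pairs gave −0.79 and −0.73. DESeq2 placed it past the threshold (−0.76, adjusted p = 0.0457), and over 12 alternatives the log2 difference stayed between −0.89 and −0.63 with adjusted p from 0.0124 to 0.85. Both TLR9-/- libraries lay below both WT libraries in each of the 3 clusters that made up the class. In cluster 5 it was 117, 134, 213 and 225 CPM, in cluster 9 it was 66.0, 71.2, 101 and 131 CPM, and in cluster 25 it was 117, 162, 168 and 197 CPM. TLR9-/- monocytes had more UMIs per cell, with medians of 4492 and 4904 against 3447 and 3992. The 7 neutrophil genes counted as free RNA summed to 1670, 1703, 2019 and 2369 CPM in monocytes and the 4 globin genes to 286, 240, 1038 and 205 CPM. Their part in the Nfkbia difference was not tested.

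**Figure D3:**
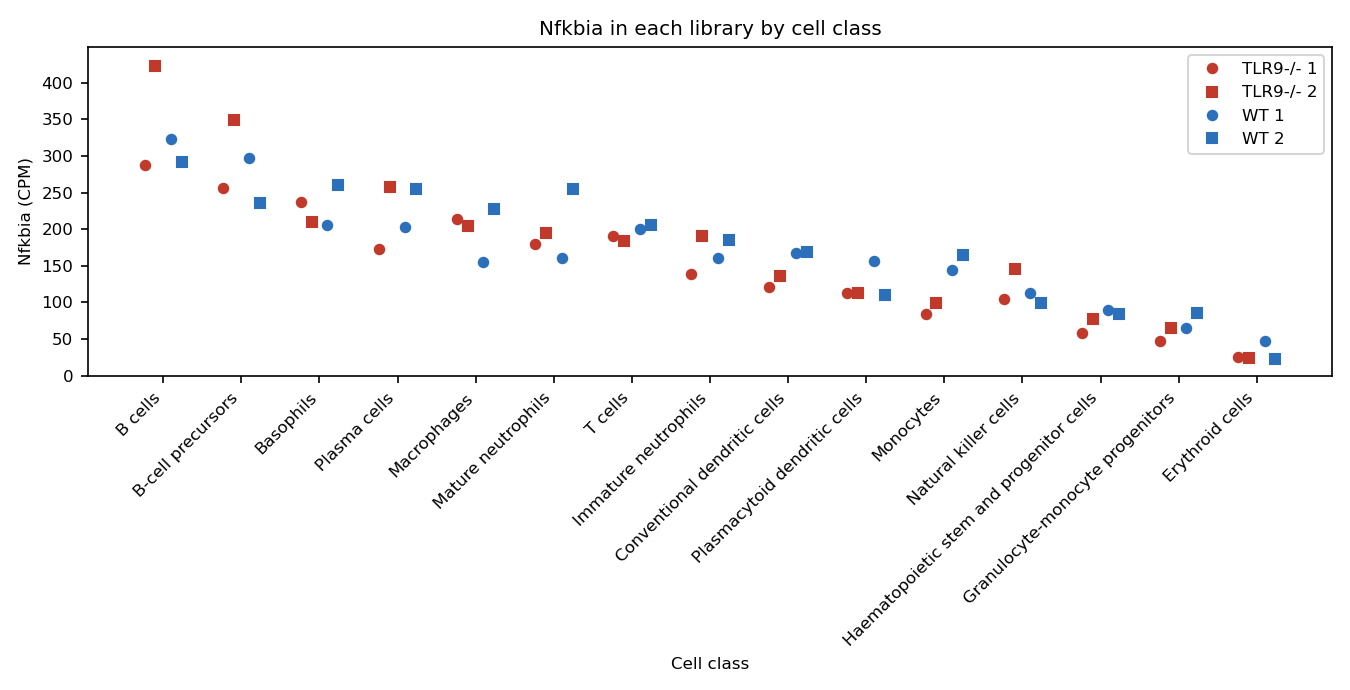
Nfkbia in each library by cell class. Each point is the CPM of 1 library (red TLR9-/-, blue WT, circles number 1, squares number 2) and classes are ordered by mean. In monocytes the TLR9-/- libraries lie at 83.6 and 99.0 CPM and the WT libraries at 145 and 165 CPM, whereas in B cells the genotypes overlap.

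The genotype difference of Nfkbia was not the same in every lineage. In the sum of monocytes and macrophages it was −0.73 on the log2 scale, in the B lineage 0.20 and in neutrophils −0.06. The term for the difference between lineages passed the threshold for the monocyte lineage minus the B lineage (−0.91, standard error 0.17, adjusted p = 0.0246), where 0.498% of all genes were called. It also passed for the monocyte minus the neutrophil lineage (−0.66, standard error 0.13, adjusted p = 0.0175), where 0.589% were called. For the neutrophil minus the B lineage it was −0.22 (adjusted p = 0.851), against 0.221% of genes called. Without the WT library numbered 2 the first of these was −0.68 and lost its call (adjusted p = 0.377), and without marked doublets the second was −0.64 and lost its call (adjusted p = 0.224). In the B lineage the levels were 263, 377, 304 and 251 CPM, with log2 ratios of −0.21 and 0.59 in the same-numbered pairs, so the 2 pairs differed in sign there. This sum held 1033, 1352, 1719 and 1835 B cells and 2147, 829, 3290 and 2372 B-cell precursors, so proportions differed between libraries. Nfkbia was 680, 811, 671 and 597 CPM in precursor cluster 0 and 121, 100, 110 and 121 CPM in precursor cluster 15. The part of this mix in the lineage terms was not tested. The values of the neutrophil lineage were 145, 192, 160 and 192 CPM, with ratios of −0.15 and 0.00. These 2 calls were the only ones among 30 member tests of this kind.

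Nfkbia also lay lower in both TLR9-/- libraries than in both WT libraries in conventional dendritic cells (121, 136, 168 and 168 CPM), haematopoietic stem and progenitor cells (58.3, 77.6, 90.2 and 84.8 CPM), T cells and, by a margin smaller than the rounding, granulocyte-monocyte progenitors (47.3, 65.5, 65.5 and 85.8 CPM). That made 5 of its 15 classes, where 18.6% of all gene-by-class tests had this order. The progenitor class joined cluster 13, led by Elane and Ms4a3, and cluster 14, led by Ass1 and Glipr1, in proportions that differed between libraries, and the order held in only 1 of them. In cluster 13 the values were 52.1, 76.8, 76.0 and 96.4 CPM and the genotypes overlapped, while in cluster 14 they were 44.2, 49.4, 55.2 and 55.0 CPM without overlap. None of these 4 passed the threshold.

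Nfkbib had the most uniform direction. Its log2 difference was positive in 14 of 14 tested classes, with a median of 0.42, and both TLR9-/- libraries lay above both WT libraries in 10 of the 14, where 18.7% of all tests had that order. The classes come from the same 4 libraries and are not independent. In granulocyte-monocyte progenitors Nfkbib was 41.2, 40.7, 30.6 and 30 CPM (log2 difference 0.44, standard error 0.15, adjusted p = 0.498). In erythroid cells it was 31.5, 34.3, 25.5 and 21.0 CPM (0.50, adjusted p = 0.918), and in immature neutrophils 25.3, 23.2, 19.1 and 16.5 CPM (0.46, adjusted p = 0.684). These were its 3 classes with an unadjusted p under 0.05 in edgeR, against 6.81% of all tests. No class passed the threshold. In conventional dendritic cells, natural killer cells, T cells and B-cell precursors the groups overlapped.

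Of the remaining genes in the inhibitor group, Nfkbie in plasmacytoid dendritic cells was 37.0, 46.9, 22.9 and 26.5 CPM, without overlap between genotypes (log2 difference 0.79, standard error 0.25, adjusted p = 0.471). Over 12 alternatives this difference ran from 0.46 to 0.94 and was lowest at a finer clustering. Nfkbiz in B cells was 13.5, 12.0, 19.6 and 20.2 CPM (−0.66, standard error 0.27, adjusted p = 0.815). Both TLR9-/- libraries lay below both WT libraries in 4 of its 12 classes and above them in 1, immature neutrophils, where 18.6% and 18.7% of all tests had these orders. Its genotype difference in the neutrophil lineage exceeded that in the B lineage by 1.05 without passing (adjusted p = 0.224). With no filter on low counts this term passed in edgeR (1.04, adjusted p = 0.0189). The same-numbered pairs gave 0.88 and 0.09 in the neutrophil lineage and −0.71 and −0.43 in the B lineage. The neutrophil lineage pooled 688, 711, 196 and 661 mature with 870, 1311, 673 and 1061 immature neutrophils. The part of this mix in the term was not tested. Of the subunits, Nfkb1 was below WT in both libraries in 5 of 14 classes, where 18.6% of all tests had that order, among them monocytes (71.0, 79.4, 89.3 and 87.6 CPM, log2 difference −0.23, adjusted p = 0.753). Rela had 10 positive and 3 negative differences, none beyond 0.43 in size. Rel in B cells, where it was highest, differed by −0.19 (standard error 0.22, adjusted p = 0.968).

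**Figure D4:**
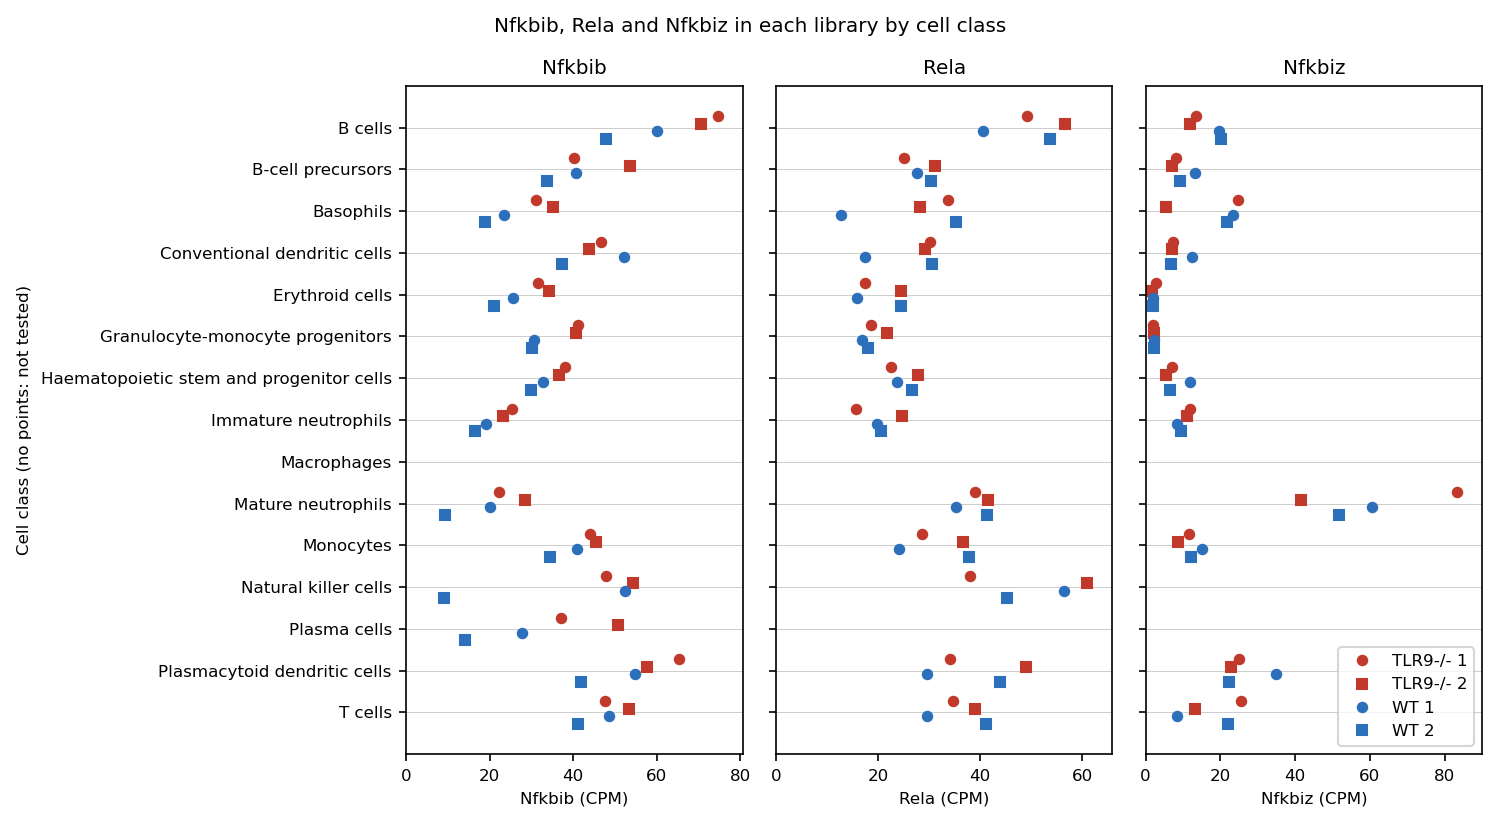
Nfkbib, Rela and Nfkbiz in each library by cell class. The horizontal axes give CPM, each point is 1 library (red TLR9-/-, blue WT, circles number 1, squares number 2) and classes without points were not tested. For Nfkbib the red points lie right of the blue in 10 of 14 classes, and for Rela the circles lie left of the squares in 9 of 13.

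Between library numbers, edgeR again called 0 of the 119 member tests, against 0.321% of all tests, and DESeq2 called 0. The unadjusted p of edgeR was under 0.05 in 8 (6.72%), against 8.20% of all tests. The median log2 difference of number 1 over number 2 was −0.09 over the members and −0.01 over all tests. Rela was negative in 13 of 13 classes, with a median of −0.27, and both libraries numbered 1 lay below both numbered 2 in 9 of them, where 20.1% of all tests had that order. In monocytes Rela was 28.5, 36.7, 24.1 and 37.7 CPM (log2 difference −0.48, standard error 0.17, adjusted p = 0.575). In plasmacytoid dendritic cells it was 34.1, 49.1, 29.5 and 43.8 CPM (−0.56, adjusted p = 0.583). The genotypes overlapped in both classes while the numbers did not. Over all kept cells, median UMIs per cell were 2545, 3618, 1759 and 2287, lower in number 1 within each genotype. The part of this depth in the differences between numbers was not tested.

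Nfkbiz went the other way. It was positive in 12 of 12 classes, with a median of 0.38, and the libraries numbered 1 lay above those numbered 2 in 6 of them, where 19.2% of all tests had that order. In mature neutrophils, where it was highest, it was 83.4, 41.6, 60.5 and 51.7 CPM (log2 difference 0.69, standard error 0.33, adjusted p = 0.744). Tnfaip3 was positive in 9 of 10 classes. In T cells it was 46.9, 12.4, 23.2 and 19.0 CPM, from 61, 13, 11 and 6 UMIs (log2 difference 1.41, standard error 0.44, adjusted p = 0.291). In erythroid cells it was 2.52, 1.5, 4.38 and 0.986 CPM (1.46, adjusted p = 0.221), and in basophils 43.4, 8.59, 25.5 and 32.5 CPM (1.24, adjusted p = 0.75). The erythroid values were low, and the class pooled clusters in proportions that differed between libraries. Its cluster 17, led by Tmcc2 and Hbb-bs, held 264, 119, 529 and 116 of 893, 777, 1681 and 869 cells. That cluster had 0, 0, 7 and 0 Tnfaip3 UMIs. Median UMIs per erythroid cell were 2921, 9252, 2250 and 7981. The T cell value was 0.69 without the TLR9-/- library numbered 1. The basophil value was 0.19 without the TLR9-/- library numbered 2, and that of Nfkbiz in basophils (24.8, 5.47, 23.4 and 21.6 CPM, 1.30) was then 0.16. Nfkbia was negative in 12 of 15 classes, with a median of −0.21. None of 30 tests of whether the number difference of a member varied between lineages passed in edgeR, 0 had an unadjusted p under 0.05, and 0.0375% of all genes were called.

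Early response genes, which cells induce within minutes of stimulation or dissociation, stood beside these differences. Of 19 such genes 17 were tested. Of their 209 tests, edgeR called 30 higher in the libraries numbered 1 and 0 lower, against 0.321% of all tests called. Of the 209 differences 192 were positive, with a median of 1.03 on the log2 scale. Between genotypes edgeR called 0 of the 209 and DESeq2 called 0, with 5 at an unadjusted p under 0.05 in edgeR, against 6.81% of all tests. Of the 209 genotype differences 137 were positive, with a median of 0.20, against −0.01 over all tests. In T cells Fos was 137, 24.8, 95.1 and 22.1 CPM (log2 difference 2.31, adjusted p = 0.000451). In haematopoietic stem and progenitor cells Ier3 was 106, 32.5, 105 and 32.3 CPM (1.70, adjusted p = 0.00254), and in basophils Ier2 was 1081, 183, 668 and 249 CPM (2.05, adjusted p = 0.00722). The summed level of the list was higher in number 1 in 15 of 15 classes, by 0.42 to 1.53 on the log2 scale. In monocytes it was 2558, 1020, 1599 and 940 CPM. The part of this shift in the Rela, Nfkbiz and Tnfaip3 values was not tested.

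**Figure D5:**
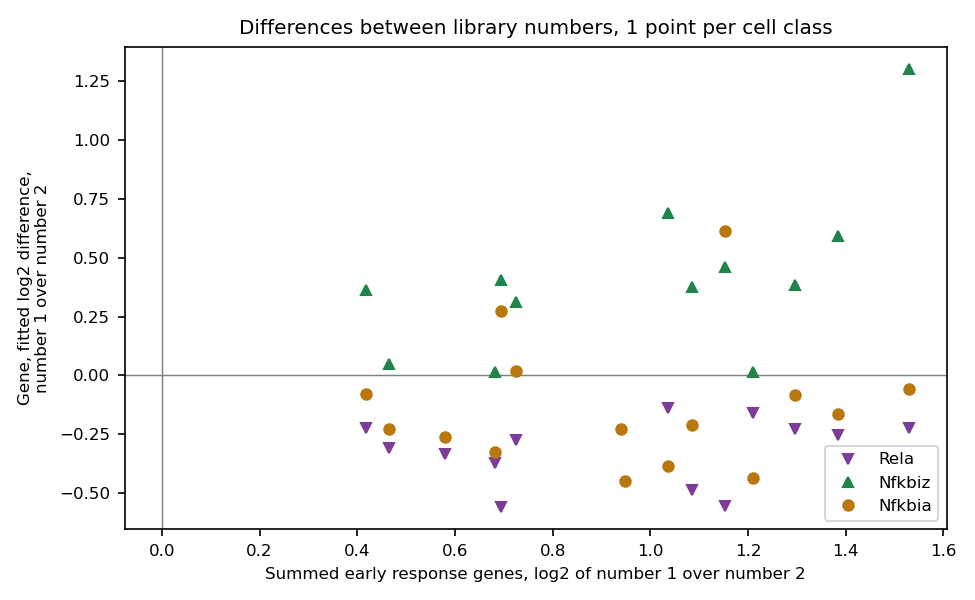
Differences between library numbers, 1 point per cell class. The horizontal axis is the log2 ratio of the summed early response genes (number 1 over number 2) and the vertical axis the fitted log2 difference of Rela, Nfkbiz or Nfkbia. Every class lies right of 0 (0.42 to 1.53), Rela lies below 0 in 13 of 13 classes and Nfkbiz above 0 in 12 of 12.

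Among 22 known NF-κB target genes, edgeR called 7 of 149 tests higher in number 1 and 0 lower, against 0.321% of all tests called. Of the 149 differences 105 were positive. Between genotypes edgeR called 0 (10 at an unadjusted p under 0.05, against 6.81% of all tests, and 0 by DESeq2). There 92 of the 149 differences were positive, with a median of 0.11. The 7 calls belonged to 3 genes. Ccl4, a chemokine, was 72.6, 1.07, 57.8 and 5.09 CPM in plasmacytoid dendritic cells (log2 difference 4.66, adjusted p = 0.00191). Ccl3 was 51.3, 7.98, 31.4 and 8.32 CPM in monocytes (2.37, adjusted p = 0.0241), and Ptgs2, which encodes cyclooxygenase-2, was 111, 3.85, 25.2 and 7.24 CPM in mature neutrophils (3.82, adjusted p = 0.0212). In each the libraries numbered 1 lay above those numbered 2 in both genotypes. Of the kinases and adaptors upstream of NF-κB, 0 of 214 tests were called by edgeR or DESeq2 for either comparison. In each comparison 9 had an unadjusted p under 0.05, against 6.81% of all tests between genotypes and 8.20% between numbers. Of 12 other IκB proteins and feedback inhibitors, edgeR called 0 of 142 tests for either comparison. An unadjusted p under 0.05 was found in 3 between genotypes and 15 between numbers, against the same 2 shares of all tests. DESeq2 called 0 between genotypes and 1 between numbers.

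The spread of each member over the 4 libraries of a class can be split into shares for genotype, for library number and for the remainder. On log2(CPM + 10) values the median shares over the 119 member-by-class cases were 24.3% for genotype, 27.9% for number and 26.1% for the remainder, against 28.6%, 31.5% and 16.1% over all tested genes. Genotype held the largest share in 40 cases, number in 46 and the remainder in 33. By gene, genotype had a median share of 69.1% for Nfkbib, and number had 73.2% for Rela, 61.4% for Rel and 57.1% for Nfkb2. For Nfkbie the remainder had 68.3%.

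Neutrophil transcripts and globin, counted as free RNA outside the cells that make them, were compared too. The tests also covered the neutrophil and erythroid classes, where these are the cells' own transcripts. Of 100 tests of the 7 neutrophil genes, edgeR called 1 higher and 0 lower in TLR9-/- libraries, against 0.312% of all tests called, and 49 differences were positive. Between numbers it called 1 higher and 1 lower in number 1, against 0.321%, and 27 were positive. In edgeR, 27 of these 100 tests had an unadjusted p under 0.05 between genotypes and 41 between numbers. Over all genes 6.81% and 8.20% of tests had such a p. Of 56 tests of the 4 globin genes, edgeR called 9 lower and 0 higher in TLR9-/- libraries, and 4 differences were positive. Between numbers it called 5 higher and 0 lower in number 1, and 38 were positive. Of the 56 globin tests, 30 had an unadjusted p under 0.05 in edgeR between genotypes and 25 between numbers. In T cells globin summed to 2138, 1320, 5807 and 4646 CPM, beside the Tnfaip3 values given above.

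Over all cells together, several members were lower in TLR9-/- libraries than they were within classes. Nfkbia was 109, 124, 161 and 149 CPM over all cells, without TMM scaling, a log2 ratio of the means of −0.42. With every class given the same weight in each library it was 115, 153, 144 and 143 CPM and the ratio was −0.09, with −0.32 and 0.10 in the same-numbered pairs. For Relb the ratio went from −0.54 to 0.11 and for Nfkb2 from −0.45 to −0.04 on the same 2 scales. For Nfkbib it was 0.35 over all cells, with 0.17 and 0.54 in the same-numbered pairs. At fixed weights the Nfkbib ratio was 0.41, with 0.24 and 0.58 in the pairs. No member passed the threshold over all cells, the smallest adjusted p between genotypes being 0.236 for Relb.

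After centring on class means, the genes whose log2(CPM + 10) values followed a member most closely over 60 class-by-library values were sought among 5331 genes. For Nfkbib they were Sec13 (r = 0.86), Eif4e (r = 0.78) and Tagln2 (r = 0.77), and for Nfkbiz Eef1akmt1 (r = 0.79), Mterf1a (r = 0.74) and Tug1 (r = 0.73). For Rela they were Mgat1 (r = 0.73), Rpl4 (r = 0.69) and Ylpm1 (r = 0.68), and for Tnfaip3 Tnks2 (r = 0.75), Zfpm1 (r = 0.72) and Ndufa2 (r = 0.65). Nfkb2 was closest to Mapkap1 (r = 0.74), Nfkbie to Tmem205 (r = 0.71), Rel to Ankrd44 (r = 0.67), Nfkb1 to Sp3os (r = 0.67) and Relb to Mcee (r = 0.67). Nfkbia had the weakest likeness, with Slamf6 at r = 0.55. Among the members the strongest relation was between Rel and Nfkbib, at r = −0.54. All 60 values share 4 libraries, so these are descriptions.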

How the data were processed

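Per the labels, the authors aligned 5′ single-cell reads to mm10 with Cell Ranger (3.0.1 in the file headers) and deposited UMI counts per gene and cell, whole numbers with no normalization, for 31053 genes of GENCODE names. STAR and Seurat 2.3.4 are also named in the submitters' processing notes. Each molecule is counted once from its 5′ end, so levels are not scaled by gene length, and reads shared by overlapping genes could not be separated. Cells with 200 to 10000 detected genes and at most 10% mitochondrial UMIs were kept. They were clustered (scanpy 1.11.5, leidenalg 0.10.2) without the 10 genes or the gene lists among the variable genes, and clusters were named from marker genes. Putative doublets, 2.70% to 7.12% of cells per library, were kept in the main fit; in 1 library the caller did not separate them, and an expected rate was used.

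UMIs were summed per library and class and tested with edgeR 4.0.16 (quasi-likelihood, TMM scaling, R 4.3.3), with genotype or library number as the only term. P-values were adjusted by the Benjamini-Hochberg method over all genes of a class, at a threshold of 0.05. Differences between lineages were tested as an interaction term on summed lineages. There are 2 libraries in each group, each from 1 mouse, and an exact permutation test could not go below p = 0.33. Scripts were checked on simulated counts. DESeq2 1.42.0, other filters, clusters in place of classes, removal of doublets or of 1 library, and a replicate block were alternatives.

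The members and the gene lists were chosen with earlier results of these data known. All 10 members were described in every class, and from each list at most 3 genes per comparison were named, those with the smallest p among the called. Promoter windows came from RefSeq.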

Additional observations from a re-analysis of the deposited data

Results flagged for a closer look

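The genotype difference of Nfkbia differed between lineages by the interaction test of edgeR. The difference in the monocyte lineage minus that in the B lineage was −0.91 on the log2 scale (adjusted p = 0.0246; over the alternatives −1.15 to −0.68, adjusted p from 7.53e-09 to 0.377). Minus that in the neutrophil lineage it was −0.66 (adjusted p = 0.0175; over the alternatives −0.73 to −0.57, adjusted p from 0.0023 to 0.224). In the monocyte lineage, the sum of monocytes and macrophages, the same-numbered pairs gave −0.76 and −0.70, whereas the B lineage pairs differed in sign, at −0.21 and 0.59. The B lineage pooled B cells and their precursors in proportions that differed between libraries. The cause of the lineage differences was not tested.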

How the results depend on the processing

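Of 18 single log2 values followed through the alternatives, 0 reversed in direction, and the other member-by-class values were not followed. The 18 were those with an unadjusted p under 0.05 in the main edgeR fits, and the alternatives reuse the same libraries. A reversal was therefore unlikely from the start. Of 119 member tests between genotypes, 0 were called in the main analysis, 0 to 0 with 1 library left out, 1 by DESeq2 and 2 with the replicate block. Over all genes the block called 2319 of 113000 tests between genotypes and 2927 between numbers. Among the members, the block added Nfkbia between genotypes in monocytes (−0.76, adjusted p = 0.0124) and in granulocyte-monocyte progenitors (−0.43, adjusted p = 0.0296). Between library numbers 0 were called, 0 to 2 with 1 library left out, and 2 with the block (Tnfaip3 in T cells, 1.48, adjusted p = 0.0148, and Nfkbia in granulocyte-monocyte progenitors, −0.43, adjusted p = 0.0248). Without the TLR9-/- library numbered 1 the 2 calls were erythroid Tnfaip3 (1.79, adjusted p = 0.0398) and Nfkbia (0.99, adjusted p = 0.00945).

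Over all genes, 353 tests were called between genotypes, against 2319 with the block, 1908 with no filter on low counts, 569 with clusters in place of classes and 307 to 1082 with 1 library left out. Between numbers 363 were called, against 2927 with the block, 2588 with no filter, 742 by DESeq2, 809 with clusters and 714 to 1453 with 1 library left out. Of the member tests between lineages, 2 were called, 3 with no filter, 1 without marked doublets and 1 to 2 with 1 library left out. The clusters, and the lineage fits with a library left out or with the block, were chosen after seeing the data. The cause of these changes was not tested.

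Same-numbered libraries deviated together with a correlation of −0.05 to 0.61 over the classes (median 0.28, above 0.1 in 12 of 15). With 2 pairs and no label that ties numbers to experiments, the pairing is a hint only. Members with few UMIs in a class, such as the macrophages, were limited by depth.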
